A study of Mus musculus with 6 samples.

Results

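The genes described here make cholesterol, control its synthesis or handle its uptake and export, and were measured in muscle satellite cells, the resident stem cells that rebuild injured fibres. They were chosen by name, with earlier results of these data known. They comprise 18 enzymes of sterol synthesis, 5 genes of the SREBP control system, 4 of sterol uptake and intracellular transport, 4 of storage and export, and 2 LXR receptors. All 33 symbols were found among the 27179 Entrez gene IDs counted in each library, and 30 passed the filter on low counts. The satellite cells were taken from muscle of wild-type (WT) mice of the C57Bl/6N strain background, with 3 libraries for high-fat diet feeding and 3 for chow, and the series describes the mice as obese and lean. Each replicate held at least 50000 cells sorted by flow cytometry, and RNA with an integrity number of 8.5 to 9.4 was depleted of ribosomal RNA and sequenced as 75-bp single reads. The sources used here do not give the length and composition of the diets, the age and sex of the mice or whether mice were pooled. Nothing says that the replicates came from separate animals, so the p-values reflect only how these libraries vary, some of which may be technical.

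Animal cells build cholesterol from acetyl-CoA through mevalonate, the isoprenoid units, squalene and lanosterol. When membranes of the endoplasmic reticulum run low in sterol, the escort protein Scap carries the SREBP factors to the Golgi, where they are cut and released as active transcription factors, and SREBP-2 then raises most enzymes of the pathway. When sterol is plentiful the Insig proteins hold Scap in the endoplasmic reticulum, and oxysterols activate the LXR receptors, which raise genes of cholesterol export. Several SREBP-2 targets, Insig1 and Srebf2 itself among them, are part of this feedback.

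Library totals ran from 14930394 to 18217818 counts, and in a principal component analysis of 500 genes high-fat diet library 1 and chow library 3 lay at opposite ends of the leading axis, away from the other 4. Values without both are given where a call rests on them. Levels are in TMM-normalised CPM, read counts scaled to each library's effective size in edgeR. Satellite cell markers summed to 4327 to 5479 CPM in high-fat diet libraries and 4947 to 5700 CPM in chow libraries, and Pax7 itself was at 234 ± 57.3 CPM in high-fat diet libraries and 402 ± 29.8 CPM in chow libraries (edgeR adjusted p = 0.180). Of these 10 markers 5 had negative and 5 positive log2 fold changes, and Itga7 lay the other way from Pax7, at 369 ± 42.3 CPM in high-fat diet libraries and 245 ± 45.5 CPM in chow libraries (edgeR adjusted p = 0.328). Markers of macrophages, which also express Abca1, Apoe and Nr1h3, summed to 7.93 to 26.7 CPM in high-fat diet libraries and 20.3 to 53.0 CPM in chow libraries over 13 genes, with Adgre1, C1qa and Tyrobp at 0 in all 6 libraries. Of the 7 marker lists, that of mature myofibre had a sum that did not overlap between the diets (129 to 132 CPM in high-fat diet libraries, against 73.8 to 91.1 CPM in chow libraries), through the single gene Actn3. Without Actn3 the other 8 genes summed to 10.2 to 20.3 CPM in high-fat diet libraries, against 19.7 to 32.4 CPM in chow libraries, with Tnnt3 lower in all 3 high-fat diet libraries and Ckm under 1 CPM in all 6. Its part in the sterol values was not tested. The lists for endothelial cells, fibro-adipogenic progenitors, adipocytes and pericytes overlapped between the diets, and the adipocyte genes Plin1, Lep and Retn were at 0 in all 6 libraries.

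The summed level of the sterol synthesis enzymes was lower in satellite cells on the high-fat diet than in those on chow, and 1 single enzyme, Cyp51, passed the test across all genes. The levels of the 18 enzymes summed to 223, 255 and 202 CPM in high-fat diet libraries 1, 2 and 3, against 551, 480 and 657 CPM in chow libraries 1, 2 and 3. Every high-fat diet sum lay below every chow sum, and the high-fat diet mean was 40.2% of the chow mean. In these bulk samples, fewer cells of a type and less RNA per cell cannot be told apart. Without Cyp51, the remaining 17 enzymes summed to 204 ± 22.1 CPM in high-fat diet libraries and 440.2 ± 67.9 CPM in chow libraries (SD, n = 3 each). Abundant genes such as Hmgcs1, Sqle, Idi1 and Msmo1 weigh most in these sums, and the sums do not show that every enzyme was lower.

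Of 33 sterol genes, 1 passed an adjusted p of 0.05 and was lower with the high-fat diet, and 0 were higher, in the quasi-likelihood test of edgeR, with p-values adjusted by Benjamini-Hochberg over 13202 genes. Over all genes tested, 0.258% passed, 0.167% lower and 0.0909% higher. At an unadjusted p under 0.05, 9 sterol genes were lower and 2 were higher, where 3.95% and 3.7% of all genes were. The 3 high-fat diet values all lay below the 3 chow values for 10 sterol genes and all above for 1, where 7.87% and 7.42% of all genes had such an order. The 10 include Fdps and Fdft1, for which the chow libraries alone were enough to pass the filter on low counts. DESeq2 and edgeR with no filter each called 5 of the enzymes lower (Hmgcs1, Idi1, Sqle, Cyp51 and Msmo1), and limma-voom called 3 (Hmgcs1, Sqle and Cyp51). Over all genes, 0.892%, 0.468% and 0.417% were called lower by these 3 tests, and 0 sterol genes were called higher by any of them.

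**Figure D1:**
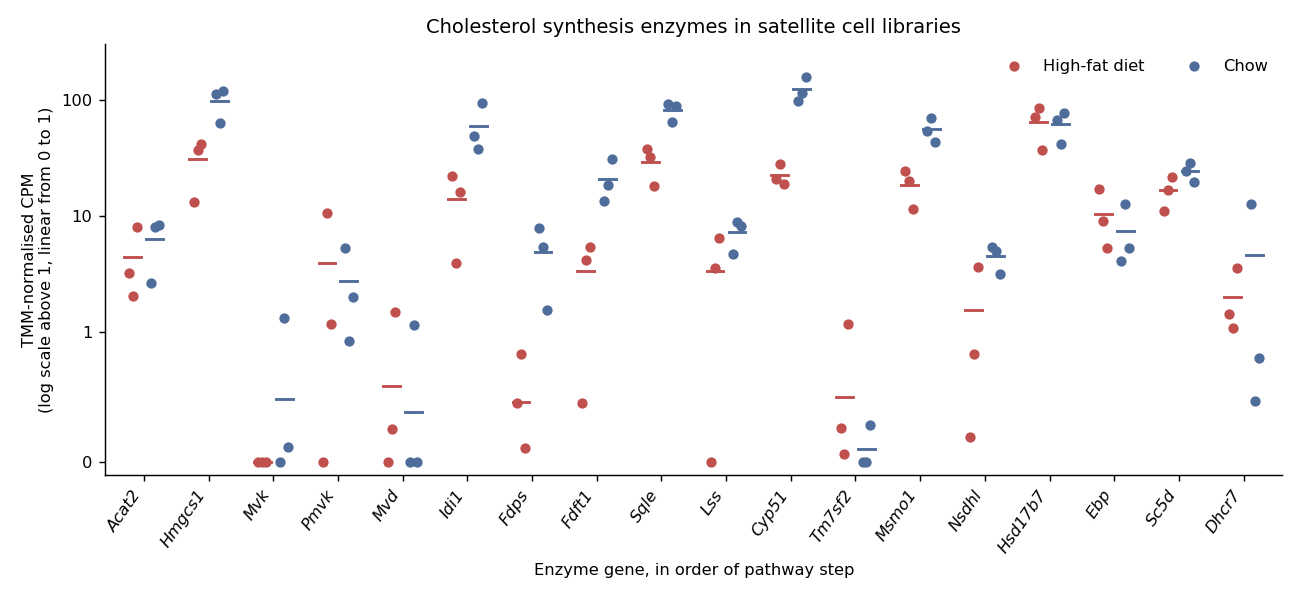
TMM-normalised CPM of the 18 synthesis enzymes in each library, in pathway order, on an axis that is logarithmic above 1 and linear below it; points are libraries (3 per diet) and dashes are means. Hmgcs1, Idi1, Fdps, Fdft1, Sqle, Cyp51 and Msmo1 have all high-fat diet points below all chow points, while those of Hsd17b7, Ebp and Sc5d overlap.

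The upstream sequences of 4 genes are printed, picked because they were among the lower ones and hold letters that SREBP and its partner factors are known to bind. Apoe holds such letters with a positive log2 fold change (0.22) and is not printed. Other lower genes with a CCAAT box, such as Idi1 and Insig1, are not printed either. Genes with a positive log2 fold change also hold this box and are not printed, such as Hsd17b7 (0.05), Insig2 (0.14), Ebp (0.51), Pmvk (0.52) and Soat1 (0.81). Whether these letters bear on the levels was not tested. Shown are the 250 bases before the RefSeq start (GRCm38.p6), 5′ to 3′ on the gene's strand, with the sterol regulatory element searched as TCACNCCA and the NF-Y box CCAAT (or ATTGG, its reverse complement) in capitals. The 4 regions are chr5:4104698-4104947 on the minus strand for Cyp51, chr13:119690101-119690350 on the plus strand for Hmgcs1, chr8:64733579-64733828 on the minus strand for Msmo1 and chr15:82147019-82147268 on the plus strand for Srebf2.
Cyp51: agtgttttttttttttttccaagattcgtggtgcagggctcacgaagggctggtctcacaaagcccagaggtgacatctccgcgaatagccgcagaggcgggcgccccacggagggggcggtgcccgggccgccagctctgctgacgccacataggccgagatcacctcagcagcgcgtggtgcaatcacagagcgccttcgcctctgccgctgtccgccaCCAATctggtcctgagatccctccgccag
Hmgcs1: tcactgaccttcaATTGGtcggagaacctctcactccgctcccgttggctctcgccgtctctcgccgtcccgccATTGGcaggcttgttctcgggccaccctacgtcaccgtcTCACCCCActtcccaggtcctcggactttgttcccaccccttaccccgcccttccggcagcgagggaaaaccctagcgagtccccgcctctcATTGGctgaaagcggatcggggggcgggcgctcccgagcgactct
Msmo1: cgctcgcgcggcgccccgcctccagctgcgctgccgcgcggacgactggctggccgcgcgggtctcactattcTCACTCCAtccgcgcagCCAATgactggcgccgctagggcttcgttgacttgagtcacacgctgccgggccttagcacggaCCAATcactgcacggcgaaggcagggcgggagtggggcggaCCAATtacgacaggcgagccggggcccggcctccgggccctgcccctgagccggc
Srebf2: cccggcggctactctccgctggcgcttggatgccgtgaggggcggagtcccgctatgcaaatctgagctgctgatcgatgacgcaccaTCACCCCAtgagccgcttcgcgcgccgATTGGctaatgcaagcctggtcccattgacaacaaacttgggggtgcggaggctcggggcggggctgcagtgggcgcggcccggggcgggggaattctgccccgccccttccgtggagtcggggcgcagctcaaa

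Of the 33 genes, 27 had a promoter window in the RefSeq table (250 bases before to 50 after the start), 15 of them enzymes. The enzymes Fdps, Fdft1 and Sqle had no window and were not searched. TCACNCCA, searched on both strands, lay in a window of Hmgcs1, Msmo1, Srebf2 and Apoe, or 4 of 27 genes, against 4.97% of all 27025 genes with a window and 4.28% of the 9766 tested genes with a window. The longer form TCACCCCAC lay in that of Hmgcs1 only, where 0.614% of all genes held it. CCAAT or its reverse complement lay in a window of 14 of the 15 enzymes, Acat2 being the exception, against 41.1% of all genes and 43.0% of the tested ones. The Sp1 box GGGCGG was also in 14 of the 15 enzymes, against 68.8% of tested genes, and the E-box CACGTG was in 3 of them (Hsd17b7, Sc5d and Dhcr7), against 11.8%. In the 250 bases printed, Cyp51 held 1 CCAAT box and no match to TCACNCCA, and Hmgcs1 held 3 CCAAT boxes and 1 match. The DR4 element of LXR (AGGTCA repeated after 4 bases) had no exact match in the 27 genes. With up to 2 mismatches it matched in a window of Dhcr7 alone, where 3.47% of all genes had such a match. These matches describe letters in a short window, and no match says only that the letters are not there.

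The pathway opens with acetyl-CoA units. Acat2, the cytosolic thiolase that joins 2 of them, was low in both diets, at 4.45 ± 3.17 CPM in high-fat diet libraries and 6.32 ± 3.19 CPM in chow libraries (SD, n = 3 each), and the ranges overlapped. Hmgcs1 (chromosome 13, 119690351 to 119708260), the cytosolic HMG-CoA synthase, was at 13.1, 37.0 and 41.8 CPM in high-fat diet libraries 1, 2 and 3, against 111, 62.9 and 120 CPM in chow libraries 1, 2 and 3. The diets did not overlap, and high-fat diet library 1 was the lowest. The log2 fold change was -1.67 (SE 0.40), which did not pass over all genes (edgeR adjusted p = 0.165). It was called by DESeq2 and limma-voom and in edgeR with no filter, and over all alternatives its adjusted p ran from 4.15e-05 (no filter) to 0.539 (without high-fat diet library 1 and chow library 3).

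The enzymes that turn mevalonate into activated isoprene units were near the limit of detection, apart from Idi1. Mvk, the mevalonate kinase, had 0 counts in each high-fat diet library, against 0, 23 and 2 counts in chow libraries 1, 2 and 3. A count of 0 allows up to 3 counts, or 0.162 to 0.195 CPM in the 3 high-fat diet libraries, so a difference between the diets was not detectable at this depth, with 1 chow library also at 0. Mvd, which decarboxylates mevalonate diphosphate, reached 1.51 CPM in high-fat diet libraries and 1.17 CPM in chow libraries at most, and neither gene was tested. Pmvk, the phosphomevalonate kinase, lay between 0 and 10.7 CPM in high-fat diet libraries and between 0.933 and 5.34 CPM in chow libraries, and its log2 fold change of 0.52 (SE 1.79) was smaller than its error.

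Idi1 (chromosome 13, 8885606 to 8892396), the isomerase that interconverts the isoprene units, was at 21.98, 3.97 and 16.2 CPM in high-fat diet libraries 1, 2 and 3, against 48.7, 37.9 and 92.9 CPM in chow libraries 1, 2 and 3. No value of the diets overlapped, although each diet spread widely. The log2 fold change was -2.09 (SE 0.55, edgeR adjusted p = 0.208), and it passed with DESeq2 (adjusted p = 0.0213) and with no filter. Fdps, which builds farnesyl diphosphate, had 7, 13 and 2 counts on the high-fat diet, against 125, 92 and 27 counts with chow. Its counts were low in all libraries, and its log2 fold change of -3.39 had an SE of 1.74 (edgeR adjusted p = 0.707).

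The next 3 enzymes make the sterol skeleton from farnesyl diphosphate through squalene. Fdft1 (chromosome 14, 63145150 to 63181687), the squalene synthase, was at 0.455, 4.22 and 5.45 CPM in high-fat diet libraries 1, 2 and 3, against 13.5, 18.4 and 31.0 CPM in chow libraries 1, 2 and 3. All high-fat diet values lay below the lowest chow value, yet the log2 fold change of -2.63 (SE 0.86) did not pass in edgeR (adjusted p = 0.373). Fdft1 shares exon bases with the cathepsin gene Ctsb, so its reads are uncertain where strand was not used in counting.

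Sqle (chromosome 15, 59315092 to 59331193), the squalene epoxidase and a rate-controlling step, was at 37.6, 32.0 and 18.02 CPM in high-fat diet libraries 1, 2 and 3, against 91.5, 63.8 and 88.0 CPM in chow libraries 1, 2 and 3. The diets were well separated, with a log2 fold change of -1.47 (SE 0.33, edgeR adjusted p = 0.126). It passed in 4 alternatives, namely DESeq2, no filter and limma-voom with and without quality weights. Lss, which closes squalene epoxide to lanosterol, was at 0, 3.58 and 6.47 CPM in the high-fat diet libraries, against 4.71, 8.92 and 8.27 CPM in the chow libraries, and the ranges overlapped.

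Cyp51 (chromosome 5, 4080674 to 4104697), the cytochrome P450 that demethylates lanosterol, was at 20.6, 28.01 and 18.9 CPM in high-fat diet libraries 1, 2 and 3, against 97.9, 113 and 156 CPM in chow libraries 1, 2 and 3. The highest high-fat diet value was far below the lowest chow value. Cyp51 fell 5.43-fold with the high-fat diet, with a log2 fold change of -2.44 (SE 0.29, edgeR adjusted p = 0.00297), the 4th smallest p of 13202 genes. It passed in all 6 fits that left out 1 library, with log2 fold changes from -2.63 to -2.23 and a highest adjusted p of 0.0366. Without both high-fat diet library 1 and chow library 3, it had a log2 fold change of -2.16 and did not pass (edgeR adjusted p = 0.141). In that fit of 2 against 2 libraries, 1 gene passed in all. GENCODE M21 annotates exon bases of Akap9 that overlap Cyp51.

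The later steps, which trim and rearrange the sterol rings, did not share 1 pattern. Msmo1 (chromosome 8, 64718123 to 64733578), the methylsterol monooxygenase that acts after Cyp51, was at 24.2, 20.1 and 11.5 CPM in high-fat diet libraries 1, 2 and 3, against 53.7, 69.8 and 43.1 CPM in chow libraries 1, 2 and 3. The diets did not overlap, and the log2 fold change of -1.58 (SE 0.39) had an edgeR adjusted p of 0.166 and passed with DESeq2 (adjusted p = 0.0211), with no filter and with quality weights in limma-voom. Nsdhl, which removes a methyl group as carbon dioxide, had 3, 13 and 68 counts on the high-fat diet, against 87, 85 and 55 counts with chow, and the ranges overlapped.

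Hsd17b7, the sterol ketoreductase that works beside Msmo1 and Nsdhl, was at 71.2, 84.0 and 36.8 CPM in the high-fat diet libraries, against 67.3, 41.6 and 76.9 CPM in the chow libraries. The diets overlapped, with a log2 fold change of 0.05 (SE 0.34). The ratio of Cyp51 to Hsd17b7 CPM was 0.379 ± 0.119 for the high-fat diet, against 2.07 ± 0.632 for chow (SD, n = 3), a pair chosen after its values were seen and given without a test. Sc5d, the lathosterol oxidase, was at 16.6 ± 5.34 and 24.2 ± 4.47 CPM on the high-fat diet and on chow, with a log2 fold change of -0.54 (SE 0.49). Ebp, the sterol isomerase, was at 10.5 ± 5.93 and 7.38 ± 4.65 CPM on the high-fat diet and on chow.

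Dhcr7, a late reductase of the pathway, was at 1.43, 1.09 and 3.56 CPM with the high-fat diet. With chow it was at 12.7, 0.466 and 0.804 CPM, so that its chow mean rested on 1 library and its log2 fold change of -1.19 (SE 1.61) was 1.67 without that library (chow library 1), 0.15 in limma-voom and 0.32 with a replicate block. Tm7sf2, a sterol reductase whose step a nuclear envelope protein can also perform, had at most 22 counts in any library and was not tested.

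Across the pathway, 13 of the 18 enzymes had a lower mean with the high-fat diet and 5 a higher one. Of the 15 tested, 12 had a negative log2 fold change, where 50.5% of all tested genes did, and the median was -1.47, against -0.01 over all genes. Fdps, Fdft1, Lss, Nsdhl and Pmvk had at least 10 counts in every chow library but not in every high-fat diet library. For these 5 genes the 3 chow libraries alone were enough to pass the filter, and the high-fat diet libraries alone were not. Pmvk among them had a positive log2 fold change, and the others are counted among the 12 negative ones. At a mean of at least 10 CPM, 7 of 8 enzymes, Fdft1 included, had a negative log2 fold change. Of all genes at that level, 49% did.

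The enzymes were also compared library by library. Taken as log2 CPM minus the chow mean, the median of the 15 tested enzymes stood at -1.33, -1.34 and -0.82 in high-fat diet libraries 1, 2 and 3, against 0.01, -0.09 and 0.14 in chow libraries 1, 2 and 3. High-fat diet library 1 was the lowest of the 6 for 6 enzymes, library 2 for 2 and library 3 for 5. Each high-fat diet library was thus the lowest for some enzymes. Hmgcs1, Fdft1 and Lss were lowest in high-fat diet library 1, Idi1 in library 2, and Fdps, Sqle, Cyp51 and Msmo1 in library 3.

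**Figure D2:**
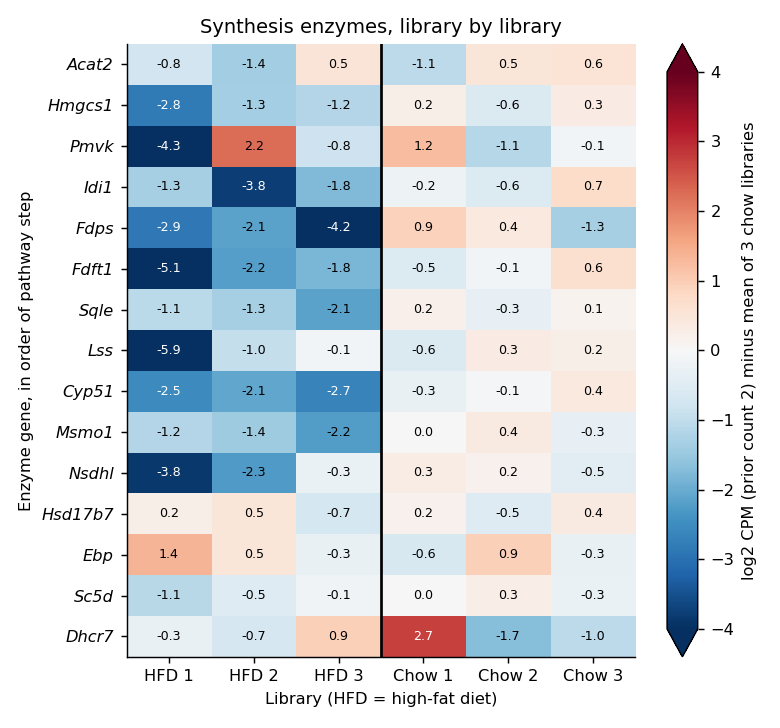
Log2 CPM (prior count 2) of the 15 tested enzymes in each library, as the difference from the mean of the 3 chow libraries, with the number printed in each cell and colours saturating at 4 in either direction; the black line parts the diets. Cyp51, Hmgcs1, Sqle, Msmo1, Idi1, Fdft1, Fdps, Lss, Nsdhl and Sc5d are negative in all 3 high-fat diet columns. Of these, Lss, Nsdhl and Sc5d overlap between the diets. Acat2, Pmvk, Hsd17b7, Ebp and Dhcr7 hold both signs.

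Levels of different genes were compared per kilobase of exon (CPM per kb). In high-fat diet libraries the order of the enzymes began with Hsd17b7 (12.7 ± 4.84), Sqle (10.6 ± 3.65), Msmo1 (9.10 ± 3.16), Hmgcs1 (8.80 ± 4.41), Ebp (6.02 ± 3.40) and Cyp51 (5.72 ± 1.23 CPM per kb, SD, n = 3). In chow libraries it began with Cyp51 (31.1 ± 7.62), Sqle (29.4 ± 5.46), Hmgcs1 (28.1 ± 8.79), Msmo1 (27.2 ± 6.58), Idi1 (19.8 ± 9.63) and Hsd17b7 (12.3 ± 3.62 CPM per kb). The first 4 levels in each diet lay within 1 SD of their neighbours. Over all 33 genes Apoe stood first in both diets, at 237 ± 34.9 CPM per kb for the high-fat diet against 204 ± 23.6 for chow, followed by Insig2 at 65.3 ± 16.6 and 59.5 ± 6.91 CPM per kb.

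None of the 5 genes of the SREBP system passed the test, and 2 of them, Srebf2 and Insig1, had no overlap between the diets. Srebf2 (chromosome 15, 82147269 to 82205379), which encodes SREBP-2, was at 213, 177 and 149 CPM in high-fat diet libraries 1, 2 and 3, against 226, 245 and 263 CPM in chow libraries 1, 2 and 3. The diets did not overlap, but high-fat diet library 1 was close to chow library 1, and the log2 fold change was -0.44 (SE 0.19, edgeR adjusted p = 0.584). An intron of Srebf2 hosts Mir33, a microRNA known to restrain Abca1. Srebf1, whose products drive mainly fatty acid synthesis, was at 46.6 ± 7.03 CPM in high-fat diet libraries and 45.3 ± 14.4 CPM in chow libraries (log2 fold change 0.04, SE 0.33). Scap, the escort, was at 24.3, 13.6 and 34.2 CPM in the high-fat diet libraries, against 35.9, 33.6 and 23.4 CPM in the chow libraries (-0.37, SE 0.44).

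The paired retention genes differed in value. Insig1 (chromosome 5, 28071412 to 28078662), which SREBP itself induces, was at 31.5, 35.0 and 39.9 CPM in high-fat diet libraries 1, 2 and 3, against 106, 70.6 and 45.5 CPM in chow libraries 1, 2 and 3. The 3 high-fat diet values were close together and below all chow values, of which chow library 3 was nearest, and the log2 fold change was -1.06 (SE 0.33, edgeR adjusted p = 0.332). Insig2, which does not depend on SREBP in the same way, was at 235, 204 and 139 CPM in the high-fat diet libraries, against 153, 193 and 181 CPM in the chow libraries, with overlap (0.14, SE 0.22). The ratio of Insig1 to Insig2 CPM was 0.134, 0.172 and 0.286 for the high-fat diet, against 0.690, 0.367 and 0.251 for chow, so that chow library 3 lay below high-fat diet library 3.

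**Figure D3:**
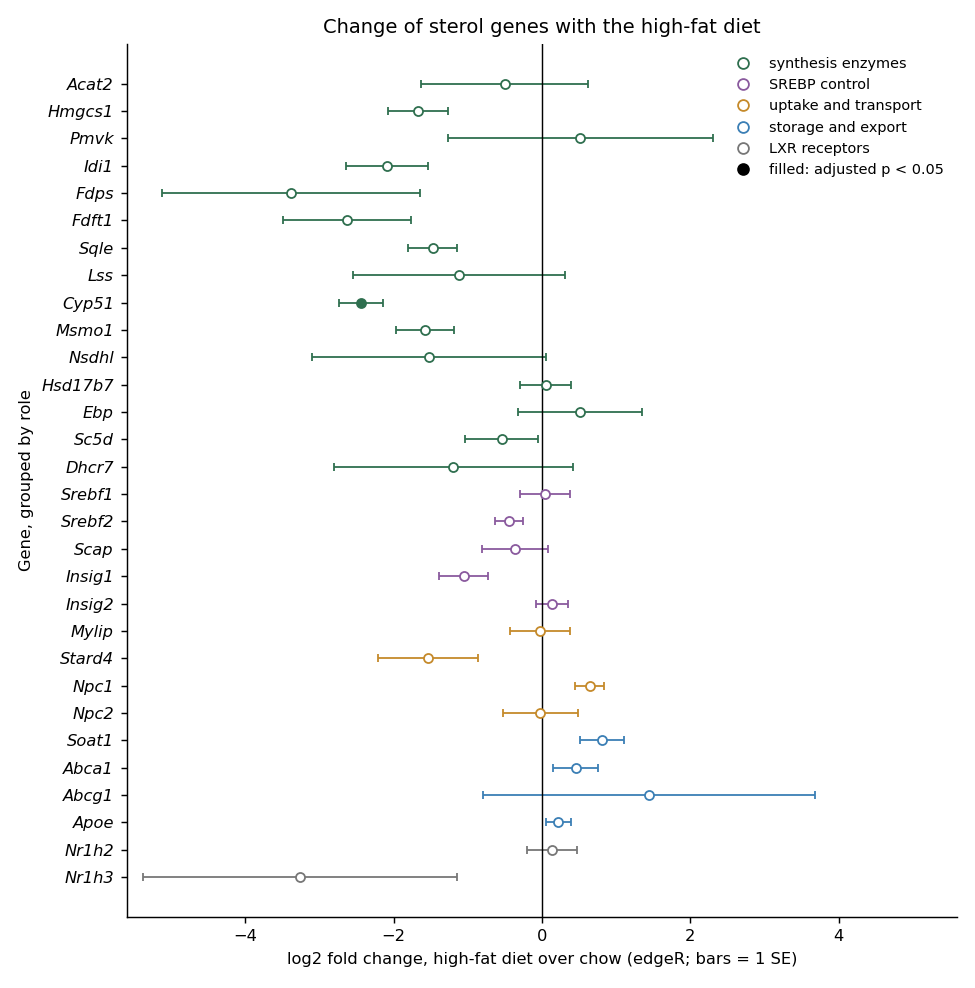
Log2 fold change (high-fat diet over chow) of the 30 tested sterol genes with bars of 1 SE, grouped by role from top to bottom; the filled point passed an adjusted p of 0.05. Cyp51 alone is filled, at -2.44, and the storage and export genes lie between 0.22 and 1.44.

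Among the genes of uptake and intracellular transport, values went in both directions. Stard4, a soluble carrier that moves cholesterol between membranes and a known SREBP-2 target, was at 16.5, 12.8 and 2.00 CPM in high-fat diet libraries 1, 2 and 3, against 31.1, 19.1 and 40.1 CPM in chow libraries 1, 2 and 3. The diets did not overlap, and the log2 fold change of -1.53 (SE 0.67) did not pass (edgeR adjusted p = 0.623). Npc1, the membrane protein that releases cholesterol from lysosomes, was at 250, 198 and 201 CPM in the high-fat diet libraries, against 145, 116 and 154 CPM in the chow libraries. Npc1 alone of the 33 genes had every high-fat diet value above every chow value, and its log2 fold change of 0.64 (SE 0.20) did not pass (edgeR adjusted p = 0.318). Npc1 shares exon bases with Rmc1. Lss, Tm7sf2 and Srebf1 also share exon bases with other counted genes (4930483K19Rik, Vps51 and Rai1), and Nr1h3 overlaps Acp2 with no shared exon bases annotated. In GENCODE M21, exon bases of Hmgcs1, Idi1, Fdps and Scap also overlap those of Gm48342, Gm48574, Gm43738 and 5830462I19Rik.

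Npc2, the soluble partner that hands cholesterol to Npc1, was at 24.2 ± 4.53 CPM in high-fat diet libraries and 24.6 ± 13.3 CPM in chow libraries. Mylip, an LXR-induced ubiquitin ligase that lowers lipoprotein uptake, was at 31.9, 25.3 and 77.2 CPM in high-fat diet libraries 1, 2 and 3, against 50.1, 42.3 and 44.8 CPM in chow libraries 1, 2 and 3. High-fat diet library 3 stood above all others, and the other 2 below all chow values.

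The 4 genes of storage and export all had positive log2 fold changes, and 0 passed in edgeR, DESeq2 or limma-voom. Of 4 further tested genes of storage and export outside this list, 3 had negative and 1 a positive log2 fold change, with a median of -0.25. The 3 negative ones were Lcat (-0.05, SE 1.09), Abca2 (-0.44, SE 0.47) and Nceh1, which passed the filter on low counts through chow alone. Within the list, Abcg1 had too few counts for a direction and Abca1 rested on 1 library. No common direction is drawn from either set. Soat1 (chromosome 1, 156428108 to 156474328), which esterifies cholesterol for storage in droplets, was at 112, 102 and 63.5 CPM in high-fat diet libraries 1, 2 and 3, against 70.9, 45.2 and 42.7 CPM in chow libraries 1, 2 and 3. High-fat diet library 3 lay within the chow range, and the log2 fold change was 0.81 (SE 0.30, edgeR adjusted p = 0.470). Abca1, which loads cholesterol onto apolipoproteins, was at 76.2, 62.7 and 145 CPM in the high-fat diet libraries, against 70.3, 68.4 and 68.8 CPM in the chow libraries. Its log2 fold change of 0.45 (SE 0.30) rested on high-fat diet library 3, without which it was 0.01.

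Apoe, the apolipoprotein that accepts the exported cholesterol, was at 480, 362 and 466 CPM in the high-fat diet libraries, against 424, 345 and 354 CPM in the chow libraries (0.22, SE 0.17). Abcg1, which exports cholesterol to lipoprotein particles, had 2, 38 and 132 counts on the high-fat diet, against 0, 61 and 0 counts with chow, too few for a direction. Of the LXR receptors, Nr1h2, the widely expressed LXR-beta, was at 51.0 ± 14.6 CPM in high-fat diet libraries and 46.4 ± 13.4 CPM in chow libraries (0.14, SE 0.33). Nr1h3, LXR-alpha, had 14, 13 and 0 counts on the high-fat diet, against 180, 95 and 0 counts with chow. Its fitted log2 fold change of -3.26 had an SE of 2.11, and both diets held a library at 0. Of 5 tested macrophage markers, 3 had negative and 2 positive log2 fold changes, and 0 were called. The most abundant, Cd68, was at 11.4 ± 5.67 CPM in high-fat diet libraries and 22.6 ± 7.82 CPM in chow libraries, with overlap. Lyz2 had 25, 43 and 0 counts in the high-fat diet libraries, against 126, 27 and 305 in the chow libraries. Chow library 3 held the most Lyz2 and 0 counts of Nr1h3. The part of macrophage RNA in the Nr1h3 values was not tested. Of the 6 known LXR targets among the 33 genes (Abca1, Abcg1, Apoe, Mylip, Srebf1 and Nr1h3), 4 had positive and 2 negative log2 fold changes, with a median of 0.13.

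**Figure D4:**
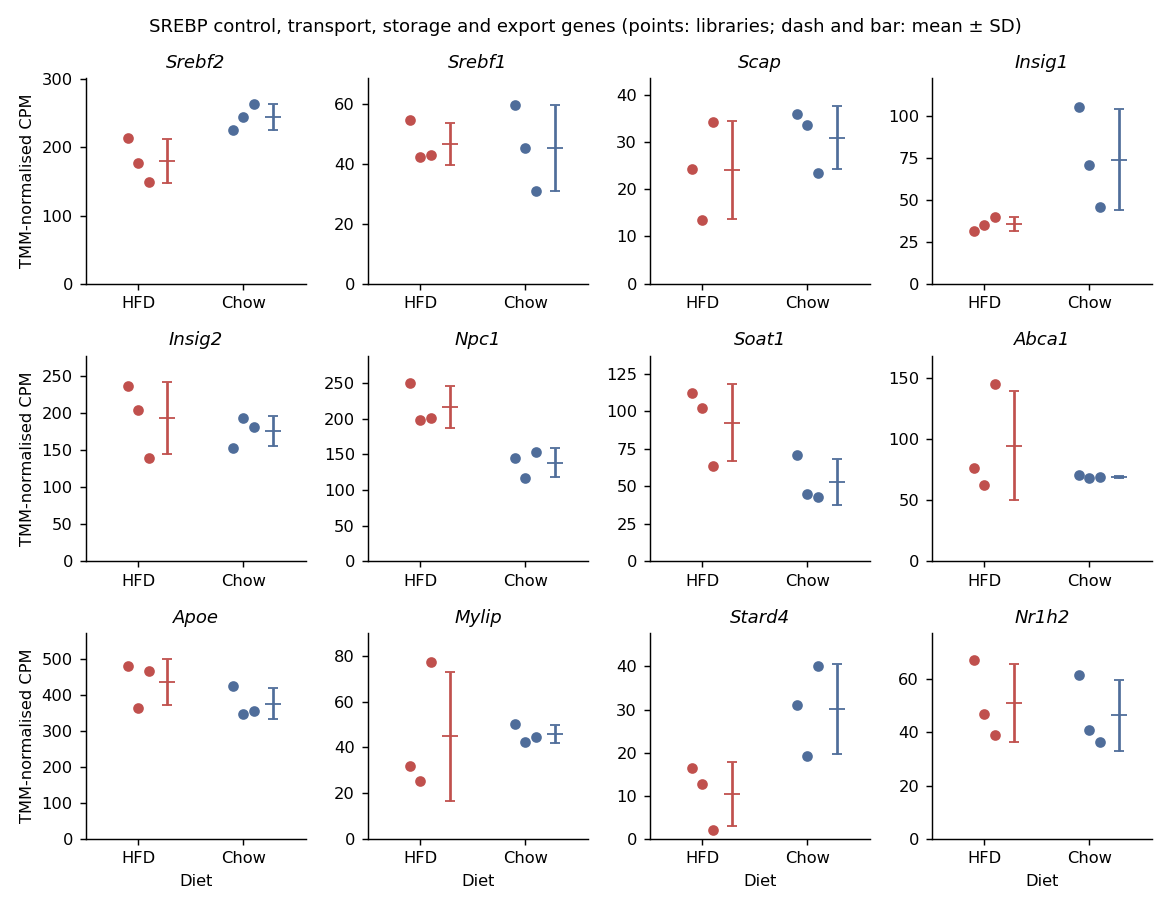
TMM-normalised CPM of 12 genes of SREBP control, transport, storage, export and LXR, with the high-fat diet (HFD) left and chow right; points are libraries and the dash with bar is the mean ± SD (n = 3). All HFD points lie below all chow points for Srebf2, Insig1 and Stard4 and above them for Npc1, and Abca1 and Mylip each have 1 HFD library far above the rest.

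A further 54 genes around the pathway were listed by their role, also with earlier results of these data known, and 49 were tested. They covered precursor supply and the non-sterol branch, SREBP processing, uptake, transfer, storage, oxysterols and other LXR targets. In edgeR 0 passed, 4 were lower and 4 higher at an unadjusted p under 0.05, and the median log2 fold change was 0.03. The high-fat diet values lay all below chow for 4 and all above for 6, where 7.87% and 7.42% of all genes had such an order. DESeq2 called 1, the cholesterol ester hydrolase Nceh1, lower (adjusted p = 0.0150), and limma-voom called 0. Nceh1 is also among the 4 lower and the 4 all below chow. It had 0, 4 and 2 counts in the high-fat diet libraries, against 123, 22 and 172 in the chow libraries. It thus passed the filter on low counts through the chow libraries alone, and no result is drawn from its call. Arl4c, a small GTPase gene that LXR induces, was at 50.9 ± 12.03 CPM in high-fat diet libraries and 20.8 ± 1.01 CPM in chow libraries (log2 fold change 1.29, SE 0.35, edgeR adjusted p = 0.226). Scd1, a desaturase gene that both LXR and SREBP-1 induce, was at 106 ± 15.2 CPM in high-fat diet libraries and 166 ± 20.8 CPM in chow libraries (-0.65, SE 0.21, edgeR adjusted p = 0.343).

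Lpl, lipoprotein lipase, was at 45.7 ± 10.1 and 80.6 ± 17.1 CPM on the high-fat diet and on chow (-0.82, SE 0.29). Nceh1 itself was at 0.121 ± 0.128 CPM in high-fat diet libraries and 6.29 ± 4.47 CPM in chow libraries, a difference between low counts. The uptake receptor gene Lrp1 was at 1031 ± 165 CPM in high-fat diet libraries and 767 ± 137 CPM in chow libraries (0.43, SE 0.17, edgeR adjusted p = 0.530). The 10 genes of SREBP processing and degradation had no member at an unadjusted p under 0.05, and those of precursor supply had 1, Por, the reductase that passes electrons to Cyp51 and Sqle. Por was at 273 ± 39.2 CPM in high-fat diet libraries and 199.5 ± 37.6 CPM in chow libraries (0.45, SE 0.20, edgeR adjusted p = 0.606), opposite in sign to those enzymes.

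**Figure D5:**
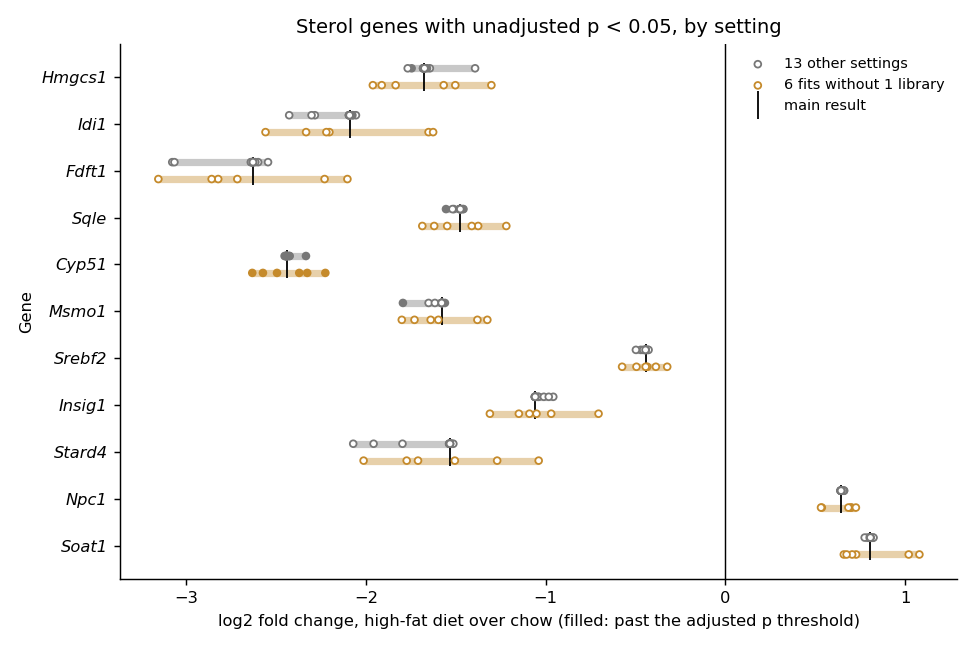
Log2 fold change (high-fat diet over chow) of the 11 sterol genes with an unadjusted p under 0.05 in the 13 other settings and in the 6 fits without 1 library; filled points passed the adjusted p threshold and the black tick is the reported value. Cyp51 is filled throughout, Hmgcs1, Idi1, Sqle and Msmo1 are filled in some of the other settings and in no fit without 1 library, and no gene crosses 0.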

How the data were processed

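RNA-seq counts of 6 satellite cell libraries were used, 3 per diet. The deposited files hold whole-number read counts per Entrez gene ID with no normalization. Alignment with Bowtie2 stands in the file headers, and featureCounts and the builds GRCm38 and mm10 stand in the submitters' processing notes. Versions, annotation release, strand and treatment of multiply mapped reads are not stated in these sources. Of 27179 IDs, 25275 were given symbols from RefSeq's GRCm38.p6 genes, whose coordinates are printed. Exon lengths came from GENCODE M21 (basic set) and promoter sequences from RefSeq.

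In R 4.3.3, the counts were fitted in edgeR 4.0.16 (filterByExpr with a minimum count of 10, TMM, glmQLFit and glmQLFTest, two-sided, diet as the only factor) over 13202 genes, and genes with a Benjamini-Hochberg adjusted p below 0.05 were called. An SE was derived as |log2 fold change| / √F. Levels are CPM after TMM. Totals ran from 14930394 to 18217818 counts. Floors cover counting error only. Replicates differed by more than sampling noise in each pair, and all 6 were kept. Libraries were compared on log2 CPM (prior count 2). The fit was tested on simulated data.

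The 33 genes, the lists and the tests were chosen with earlier results of these data known. Library values, fold change and error were given for every sterol gene with an unadjusted p under 0.05, the others by level and direction. Of the other lists, at most 5 with the smallest p were named, and Por was named after its value was seen. Alternatives were other scalings, filters and thresholds, DESeq2 1.42.0, limma 3.58.1 (voom), the replicate number as a block, mitochondrial genes left out and each library left out in turn. Leaving out both outlying libraries was added after seeing the data.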

Additional observations from a re-analysis of the deposited data

How the results depend on the processing

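All 30 tested sterol genes were refitted under 19 alternatives and 1 more added after seeing the data. Of 598 such values with an adjusted p, 585 stayed on their side of the threshold, 12 passed that had not (for 4 genes, Hmgcs1, Idi1, Sqle and Msmo1), 1 was lost, and 0 called values changed sign. The number of sterol genes called lower was 1 in edgeR under 4 other scalings, robust dispersions, an adjusted p under 0.1, a filter of 1 CPM in 3 libraries and removal of mitochondrial genes. It was 5 with no filter, 5 with DESeq2 and 3 with limma-voom, with and without quality weights. It was 1 in each fit without 1 library, and 0 without both high-fat diet library 1 and chow library 3, where Cyp51 had a log2 fold change of -2.16 (edgeR adjusted p = 0.141) from fewer samples. The number lower at an unadjusted p under 0.05 ran from 7 to 9 without 1 library.

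Over all genes, 34 were called. The count was 163 with no filter, 198 with DESeq2, 99 with limma-voom and 109 with its quality weights, from 9 to 44 without 1 library, and 1 without both libraries. The cause was not tested. The median log2 fold change of the synthesis enzymes ran from -1.88 (without high-fat diet library 3) to -0.99 (without high-fat diet library 1) and was -1.17 without both libraries. Of the other sterol genes, 1 (Nceh1, which passed the filter through chow alone) was called with DESeq2 and 0 in every other alternative. With the replicate block the counts were 45 genes in all and 1 sterol gene lower. The deviations of same-numbered libraries had correlations of 0.02, 0.03 and -0.03. For high-fat diet libraries 1 and 2, though not 3, the chow library of the same number had the highest correlation. With so few libraries, these values cannot decide whether the numbers pair the samples. At these depths, Mvk, Mvd and Tm7sf2 could not be compared.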
